A study of Mus musculus with 18 samples.

Results

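RNA-seq libraries of Sirt6-deficient and control mouse mast cells were compared at the later of the 2 stimulated levels. The comparison took 6 of the 18 libraries of the series, chosen by their labels: 3 KO libraries and 3 WT libraries at level 60. The cells were bone marrow-derived mast cells (BMMC), which are grown in culture from marrow flushed from femurs and tibias. KO cells carried loxP-flanked (floxed) Sirt6 alleles together with LysM-Cre, a Cre recombinase driven by the lysozyme M (Lyz2) promoter of myeloid cells. WT cells carried the same floxed alleles without Cre, so the floxed alleles were common to both groups and Cre was not. Each KO library shares a leading number (4120, 414 or 6110) with a WT library, and triplets of values below follow that order. The labels give the level as 60 with no unit, and they name LPS, the bacterial endotoxin sensed through TLR4, as the agent at 20 and 60, whereas the title of the series speaks of the IgE receptor FcεRI. Age, sex and strain are not given in the labels, and nothing says whether the libraries came from separate animals. The p-values rest on a spread estimated from all 18 libraries of the series, which need not be the spread between animals. That each number and genotype recurs at the 3 levels was not modelled.

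Sirt6 encodes a nuclear NAD-dependent deacylase that removes acetyl groups from histone H3 and restrains transcription of inflammatory and glycolytic genes. Mast cells carry granules of proteases and amines and, once activated, transcribe cytokine and chemokine genes in an early wave that is then switched off by short-lived mRNAs and induced inhibitors. The question put by the design is whether the loss of Sirt6 changes that transcription. The deposited table holds whole-gene read counts. Sirt6 itself was read at 10.4, 11.2 and 13.7 CPM (counts per 1e6 counts) in KO, against 9.73, 10.7 and 11.8 CPM in WT. The log2 difference was 0.14 (edgeR quasi-likelihood test, adjusted p = 0.849). Which exons are deleted is not given in the labels, and whole-gene counts neither check nor contradict the genotype labels.

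The total counts of the 6 libraries ran from 21468695 to 42265435. The mitochondrial chromosome took 4.47%, 34.7% and 4.29% of counts in KO and 8.84%, 41.9% and 15.8% in WT. Both libraries numbered 414 therefore stood apart from the other 4, and KO had the lower share in each pair. The difference of −7.73 percentage points had an exact two-sided permutation p of 0.5, where 0.1 is the smallest possible with 3 against 3. All 16 mast cell markers had counts in all 6 libraries, and their summed level was 36304, 36795 and 53680 CPM in KO and 36016, 25348 and 52328 CPM in WT. Markers of neutrophils and their precursors summed to 70.2, 38.8 and 20.3 CPM in KO and 19.7, 10.1 and 6.07 CPM in WT, so KO was higher in every pair and above all WT libraries; of its 16 markers 1, 6 and 3 were at 0 counts in KO and 4, 13 and 5 in WT. Macrophage and monocyte markers summed to 202, 258 and 358 CPM in KO, against 155, 128 and 268 CPM in WT, with overlap between the groups, and 2, 6 and 6 of their 16 markers were at 0 counts in KO and 5 in each WT library. Basophil and eosinophil markers summed to 160, 217 and 181 CPM in KO and 163, 174 and 242 CPM in WT, yet within this list Mcpt8, a basophil protease, had 128, 559 and 158 counts in KO and 85, 22 and 117 in WT, and Epx, eosinophil peroxidase, had 18, 73 and 0 counts in KO and 18, 0 and 3 in WT, so that KO 414 was the highest for both. Of the 8 tested members of this list 4 were positive, 1 was higher in KO in 3 of 3 pairs and 3 were lower in 3 of 3. Itga2 had 3 counts over the KO libraries and 40 over the WT libraries, and Siglecf had 217 and 373. The list median of 1.16 was 0.06 without KO 414. Megakaryocyte and erythroid markers summed to 3475, 3136 and 4428 CPM in KO and 4498, 6006 and 5087 CPM in WT, with no overlap, and markers of B, T, NK and dendritic cells to 21.6, 17.7 and 20.8 CPM in KO and 11.9, 14.8 and 14.8 CPM in WT, again with no overlap. Itga2b made up most of the megakaryocyte and erythroid sums, at a mean of 3163 CPM in KO and 4825 CPM in WT. Vwf and Gp1ba went the other way, with means of 253 and 256 CPM in KO and 174 and 194 CPM in WT. Of the 8 tested megakaryocyte and erythroid markers 6 were positive, with a median log2 difference of 0.47. Of the 7 tested B, T, NK and dendritic cell markers 4 were positive, with a median of 0.07. All 11 tested neutrophil markers were positive, with a median of 2.48, which ran from 1.45 to 3.32 over the settings run. For macrophages and monocytes 8 of 10 tested markers were positive, with a median of 0.91 and a range from 0.57 to 1.19. Ctsg, a granule protease gene, had the highest mean of the neutrophil markers in both groups. It averaged 22.1 CPM over the KO libraries, against 6.88 CPM over the WT libraries. The part of these other cells in the results below was not tested. In such bulk libraries fewer cells of a type and less RNA per cell cannot be told apart.

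Of 17159 genes tested, 46 (0.268%) were called at an adjusted p under 0.05: 14 were higher in KO (0.0816%) and 32 lower (0.186%). The paired numbers mattered. Libraries of one number deviated together from their group means, and a fit with the number as a block called 183 genes (1.07%), with 76 higher in KO (0.443%) and 107 lower (0.624%). DESeq2 called 226. The genes fell into unlike kinds. Of the 183, 83 were also called with the block at both 0 and 20, and 66 at neither; among these were cytokine genes with close means in the genotypes at 0 and 20. Among the 46 calls 29 were protein-coding genes, 14 were pseudogenes and 3 were long noncoding RNAs; pseudogenes were 30.4% of the calls and 7.60% of the tested genes. Without the pair numbered 414 the unblocked fit called 15 genes and the blocked fit 68; without the pair numbered 4120 it called 24 and 41.

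The inflammatory genes that differed at 60 are introduced by their promoters, which were searched for letters that the stimulus-activated factors NF-kappa-B, AP-1, CREB and NFAT are known to bind. The 250 bases before the annotated start are shown for Il6 (interleukin 6, chr5:30012864-30013113, plus strand), Ccl3 (the chemokine MIP-1 alpha, chr11:83649379-83649628, minus strand) and the downstream of both annotated starts of Rcan1 (an inhibitor of calcineurin, chr16:92400079-92400328, minus strand), from RefSeq on GRCm38.p6. They run 5′ to 3′ on the gene's strand, and capitals mark matches on either strand to the kappa-B consensus, the AP-1 motif TGANTCA, the CRE letters GACGTCA or the NFAT core GGAAAA.
Il6: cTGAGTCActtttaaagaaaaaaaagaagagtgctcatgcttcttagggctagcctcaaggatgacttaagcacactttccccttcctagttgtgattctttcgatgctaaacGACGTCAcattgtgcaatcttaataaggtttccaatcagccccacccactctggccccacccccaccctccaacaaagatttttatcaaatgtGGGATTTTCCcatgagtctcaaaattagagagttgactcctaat
Ccl3: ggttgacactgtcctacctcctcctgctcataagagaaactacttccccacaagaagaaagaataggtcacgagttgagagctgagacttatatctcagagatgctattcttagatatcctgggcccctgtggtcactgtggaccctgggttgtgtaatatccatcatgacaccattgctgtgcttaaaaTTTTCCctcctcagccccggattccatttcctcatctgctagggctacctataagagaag
Rcan1: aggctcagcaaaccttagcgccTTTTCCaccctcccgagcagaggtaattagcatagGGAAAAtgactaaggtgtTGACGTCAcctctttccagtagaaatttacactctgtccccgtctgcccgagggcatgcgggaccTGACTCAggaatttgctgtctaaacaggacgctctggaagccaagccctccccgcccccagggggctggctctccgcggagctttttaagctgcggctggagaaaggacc

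The Il6 window held 1 match to each of the 4 motifs. Its kappa-B match ended 34 bases before the start and covers the NFAT letters, and its CRE letters ended 130 bases and its AP-1 match 242 bases before the start. The Rcan1 window held an AP-1 match 103 bases before the start, CRE letters at 167 and NFAT letters at 187 and 222, whereas the window of the upstream Rcan1 start held none of the 4. In Ccl3 only NFAT letters were found, 54 bases before the start. Over all 32851 promoter windows in the table, 7.25% held the kappa-B consensus, 6.75% AP-1, 2.78% the CRE letters and 20.4% the NFAT core. The TATA letters TATAAA were searched as well and found in none of the windows shown, against 12.4% of all. These matches describe the letters and are no evidence of binding in these cells.

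Il6, a cytokine that mast cells release on activation, had 132, 99.5 and 98.2 CPM in KO and 27.1, 17.2 and 41.5 CPM in WT. All 3 KO libraries lay above all 3 WT libraries. The log2 difference was 1.94 ± 0.40 (SE), with an adjusted p of 0.0567 in edgeR without the block and 0.0355 with it. At 20 its means were 207 CPM in KO and 176 CPM in WT, and at 0 they were 8.06 and 7.23 CPM. The genotypes were thus close at 0 and 20, and at 60 Il6 was nearer to its level of 20 in KO than in WT.

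Ccl3 followed the same order, with 411, 234 and 269 CPM in KO at 60, against 79.0, 33.1 and 130 CPM in WT. The groups did not overlap, and the log2 difference was 1.91 ± 0.41 (edgeR adjusted p = 0.0704 without and 0.0440 with the block). It averaged 914 CPM in KO against 859 CPM in WT at 20. Map3k8, the kinase TPL2 that links NF-kappa-B signalling to ERK, had 40.8, 43.4 and 35.0 CPM in KO and 7.70, 5.83 and 18.8 CPM in WT at 60. Its difference was 1.88 ± 0.39 (edgeR adjusted p = 0.0567 without and 0.0358 with the block), after KO and WT means of 27.9 and 29.2 CPM at 20. In both genes the WT library numbered 6110 was the highest of its group.

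Rcan1 had 168, 138 and 301 CPM in KO and 28.3, 28.9 and 113 CPM in WT. KO was higher in each pair and the groups did not overlap, although the pair numbered 6110 was high in both. The difference was 1.84 ± 0.54, with an edgeR adjusted p of 0.244 without the block and 0.0171 with it. Gem, a small GTPase that inhibits calcium channels, had 8.18, 5.02 and 6.22 CPM in KO and 1.63, 0.583 and 2.06 CPM in WT, a difference of 2.16 ± 0.48 (adjusted p = 0.0863 without and 0.0116 with the block). Noct, which encodes the phosphatase nocturnin, had 154, 215 and 216 CPM in KO and 38.7, 132 and 75.3 CPM in WT, and 1.25 ± 0.45 was its difference (adjusted p = 0.349 and 0.0440). Chac1, a glutathione-degrading enzyme of the integrated stress response, had 21.5, 22.4 and 35.4 CPM in KO and 4.18, 3.07 and 19.1 CPM in WT, with an adjusted p of 0.445 without the block and 0.00993 with it. These calls depended on the numbers included. Without the number 4120 the blocked fit called none of Il6, Ccl3, Map3k8, Rcan1, Gem, Noct and Chac1, and its adjusted p was 0.366 for Il6 and 0.305 for Rcan1. Without 414 it called Rcan1 and Noct alone of them, with 0.0770 for Il6, 0.117 for Ccl3 and 0.200 for Map3k8, and without 6110 it called all but Noct. With the mitochondrial share as a covariate beside the block, the adjusted p was 0.0593 for Il6, 0.0693 for Ccl3, 0.0544 for Map3k8 and 0.0787 for Noct, so these 4 calls ended, while Rcan1, Gem and Chac1 were called.

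**Figure D1:**
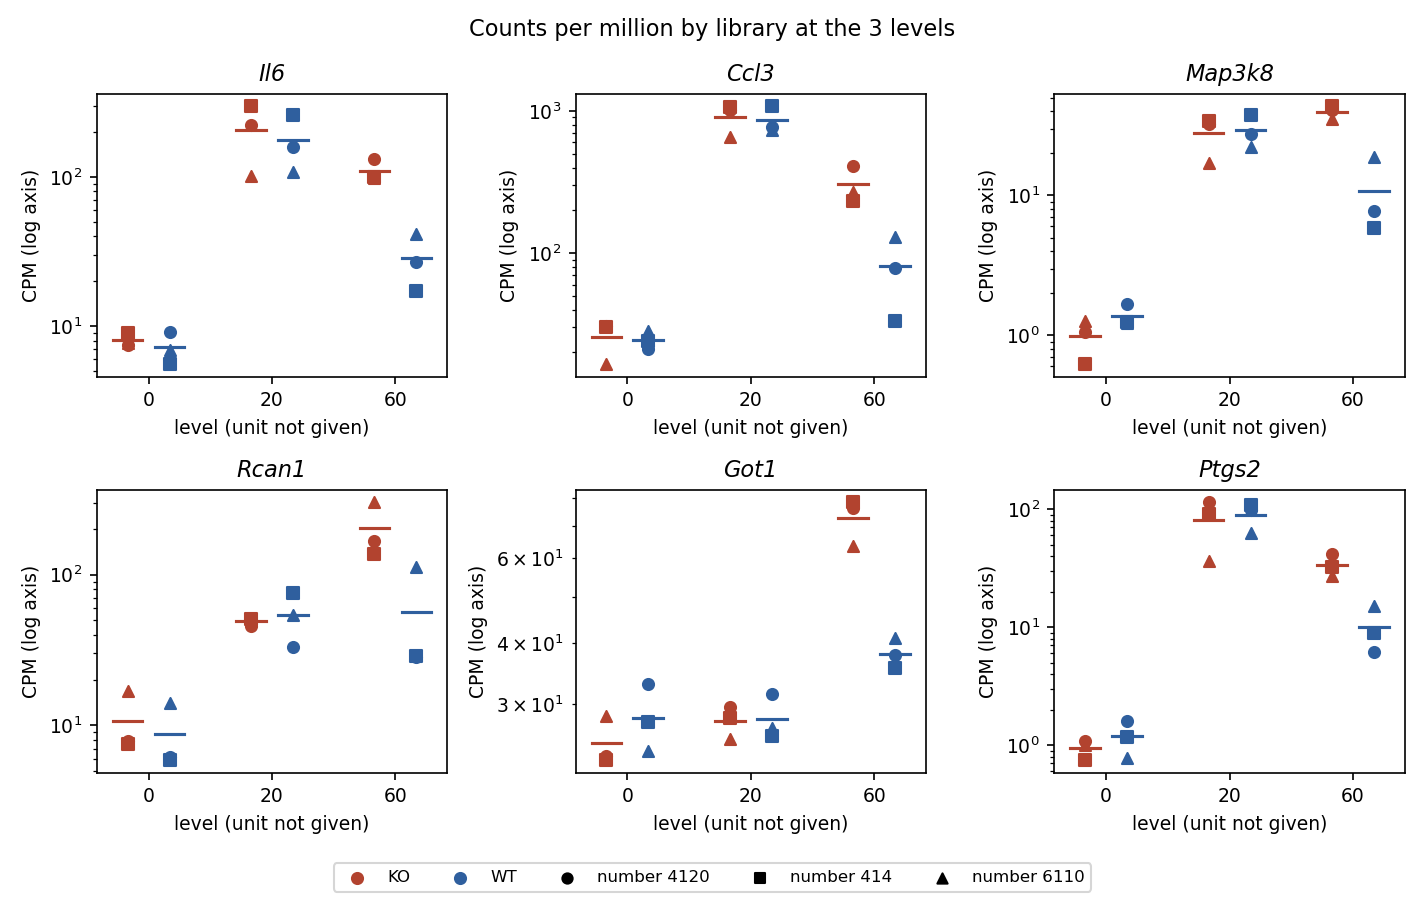
CPM of 6 genes on log axes at levels 0, 20 and 60, with KO left of WT at each level; points are single libraries, their shapes the leading numbers, and bars the means of 3. At 60 the KO points of all 6 genes lie above the WT points, while at 20 the ranges of KO and WT overlap.

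Got1 passed the threshold without the block. It encodes the cytosolic aspartate aminotransferase, an enzyme of the malate-aspartate shuttle, which carries reducing equivalents into mitochondria. It had 76.4, 78.4 and 63.6 CPM in KO and 37.8, 35.6 and 41.0 CPM in WT at 60, so the groups did not overlap. The log2 difference was 0.93 ± 0.16 (edgeR adjusted p = 0.0137 without and 0.00731 with the block). It averaged 27.6 CPM in KO against 28 CPM in WT at 20, and 24.9 CPM in KO against 28.1 CPM in WT at 0. The difference at 60 exceeded that at 0 by 1.11 on the log2 scale, with an unadjusted p of 0.000170 and an adjusted p of 1. Its call held in 2 of the 9 fits that left out a library or a number; without the number 414 the difference was 0.82 and the adjusted p 0.683. The other 5 tested genes of the shuttle list were all positive, from 0.24 upward, and none was called.

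Kpna2, importin alpha that carries proteins into the nucleus, rose in KO. It had 67.9, 39.2 and 39.1 CPM in KO, against 11.2, 8.90 and 11.8 CPM in WT, with a log2 difference of 2.2 ± 0.26 (edgeR adjusted p = 0.000376). It was also higher in KO at 0, with means of 13.7 CPM in KO and 6.25 CPM in WT, and at 20, with 24.5 and 7.87 CPM. Osgin2, which had 49.9, 49.4 and 41.9 CPM in KO and 28.4, 28 and 33.3 CPM in WT, was near equal at 20, with means of 17.6 CPM in KO and 19.9 CPM in WT (adjusted p at 60 = 0.11 without and 0.0466 with the block). The Osgin2 call with the block was lost without any of the 3 numbers.

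No gene passed the test that the difference at 60 departs from that at 0 or at 20. The edgeR test made 0 calls for 60 against 0, with 188 genes at an unadjusted p under 0.05 (1.10%), and 0 calls for 60 against 20, with 154 (0.897%); the blocked fit made 0 calls in both, and DESeq2 made 2 and 0. Of the 183 genes called with the block at 60, 11 had an unadjusted p under 0.05 in both tests, against 52 of all 17159. The 183 were selected by the difference at 60, which enters both tests, so their larger share cannot show a difference particular to 60. These 11 included Got1, Map3k8, Osgin2, Ccl3, Il6 and Gem among the genes higher in KO, and Stk38l among those lower. Gbp2b was among them as well, but its gap was smaller at 60. Its log2 difference was −6.50 at 60, −10.8 at 0 and −10.95 at 20, with 9 counts over the KO libraries at 60. That the genotype difference of these genes is particular to 60 is therefore not shown at the adjusted threshold.

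The cytokine and chemokine genes of a list of 34 were mostly higher in KO at 60. Of 27 tested, 24 had a positive difference, against 8925 of all 17159, and the median was 0.98, against 0.02 for all tested genes. The excess over the difference at 0 had a larger median of 1.60, so some members were lower in KO at 0. Il6 and Ccl3 were called with the block, none without it, and none with the mitochondrial share beside the block, where the median was 0.63. KO was higher in 3 of 3 pairs for 18 of the 27, against 24.7% of all tested genes, and above all WT libraries for 12, against 7.34%; 1 member was below all WT libraries, against 7.86%. Il13, a cytokine that drives allergic inflammation, had 64.5, 23.9 and 54.6 CPM in KO and 5.15, 1.22 and 15.3 CPM in WT, and its adjusted p was 0.106 without and 0.0507 with the block. Ccl7, a monocyte-attracting chemokine, had 364, 242 and 298 CPM in KO and 85.3, 29.5 and 135 CPM in WT (adjusted p = 0.181 and 0.0564). The 7 untested members had too few reads, and a gene seen mainly in the higher group passes that filter more easily. Without the number 414 the list held 28 tested genes, 24 of them positive, with a median of 0.87 and 0 calls in either fit. Leaving out single WT libraries moved the median to 0.61 without WT 414 and to 1.61 without WT 6110.

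Immediate early genes, which are induced without new protein synthesis and many of which encode transcription factors, had a smaller median. All 28 were tested; 23 were positive, the median was 0.65, and none was called in either fit. KO was higher in 3 of 3 pairs for 18 of them. The median was 0.38 without WT 414 and 1.03 without WT 6110. Maff, a small basic leucine zipper factor, had 44.0, 18.2 and 24.7 CPM in KO and 4.98, 2.22 and 11.6 CPM in WT (adjusted p = 0.108 without and 0.0588 with the block). Egr2, a zinc finger factor induced by calcium signals, had 116, 72.8 and 176 CPM in KO and 36.7, 28.2 and 82.1 CPM in WT (adjusted p = 0.290 and 0.101); KO was higher in each pair, though the groups overlapped. The level of 20 gave Egr2 means of 496 CPM in KO against 480 CPM in WT.

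Inhibitors that end the response were examined next. Of 15 tested MAPK feedback inhibitors 13 were positive with a median of 0.58, which was 0.35 without the number 4120 and 0.94 without WT 6110. A list that mixes NF-kappa-B inhibitors with its subunits and other targets had 19 of 24 positive and a median of 0.41; none of either list was called in either fit. Dusp8, a phosphatase of stress-activated kinases, had 12.6, 6.36 and 7.07 CPM in KO and 2, 1.06 and 3.73 CPM in WT (adjusted p = 0.218). Nfkbid, an atypical I-kappa-B protein, had 417, 287 and 461 CPM in KO and 86.2, 83.5 and 320 CPM in WT, with overlap between the groups (adjusted p = 0.322). Of 11 mRNA decay factors 10 were positive, with a median of 0.29 and 0 calls; without WT 414, 7 were positive with a median of 0.17, and without KO 6110 the median was 0.10.

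The receptor and secretion genes had lower medians. The 28 tested genes of the IgE receptor and its proximal signalling had a median of 0.10 and ranged from −0.51 to 0.39, with no call in either fit. Ms4a2, the beta chain of the IgE receptor, had 955, 733 and 1100 CPM in KO and 1325, 1054 and 1112 CPM in WT (adjusted p = 0.626). The medians were 0.26 for 18 genes of the degranulation machinery, from 0.0033 to 0.44 over the settings run, and 0.03 for 16 genes of the TLR4 pathway, again without a call. Single genes in lists of calcium entry, inhibitory receptors and mediators differed more, some higher and some lower in KO. In the calcium list 10 of 15 tested genes were positive, and among the inhibitory receptors 11 of 16. The lowest differences were −1.40 for Itpr2 and −6.88 for Clec12b. Itpr2 had 4208, 3619 and 5046 counts in KO and 13424, 12169 and 6992 in WT, and was called in neither fit. Clec12b was called in both fits. Kcnn4, a calcium-activated potassium channel that sustains calcium entry, had 219, 273 and 425 CPM in KO and 72.6, 102 and 217 CPM in WT and was called with the block (adjusted p = 0.463 without and 0.0447 with it). That call was lost without 4120, without 414 and with the mitochondrial share beside the block (adjusted p = 0.366, 0.210 and 0.0632). Fcgr2b, the inhibitory IgG receptor, had 144, 86.0 and 134 CPM in KO, against 73.6, 64.6 and 67.3 CPM in WT (adjusted p = 0.195 and 0.0226), and with the block its call was lost without any of the 3 numbers. Ptgs2, which encodes the prostaglandin synthase COX-2, had 41.4, 32.1 and 26.9 CPM in KO and 6.10, 8.90 and 15 CPM in WT without passing either threshold (adjusted p = 0.0962 and 0.0583).

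**Figure D2:**
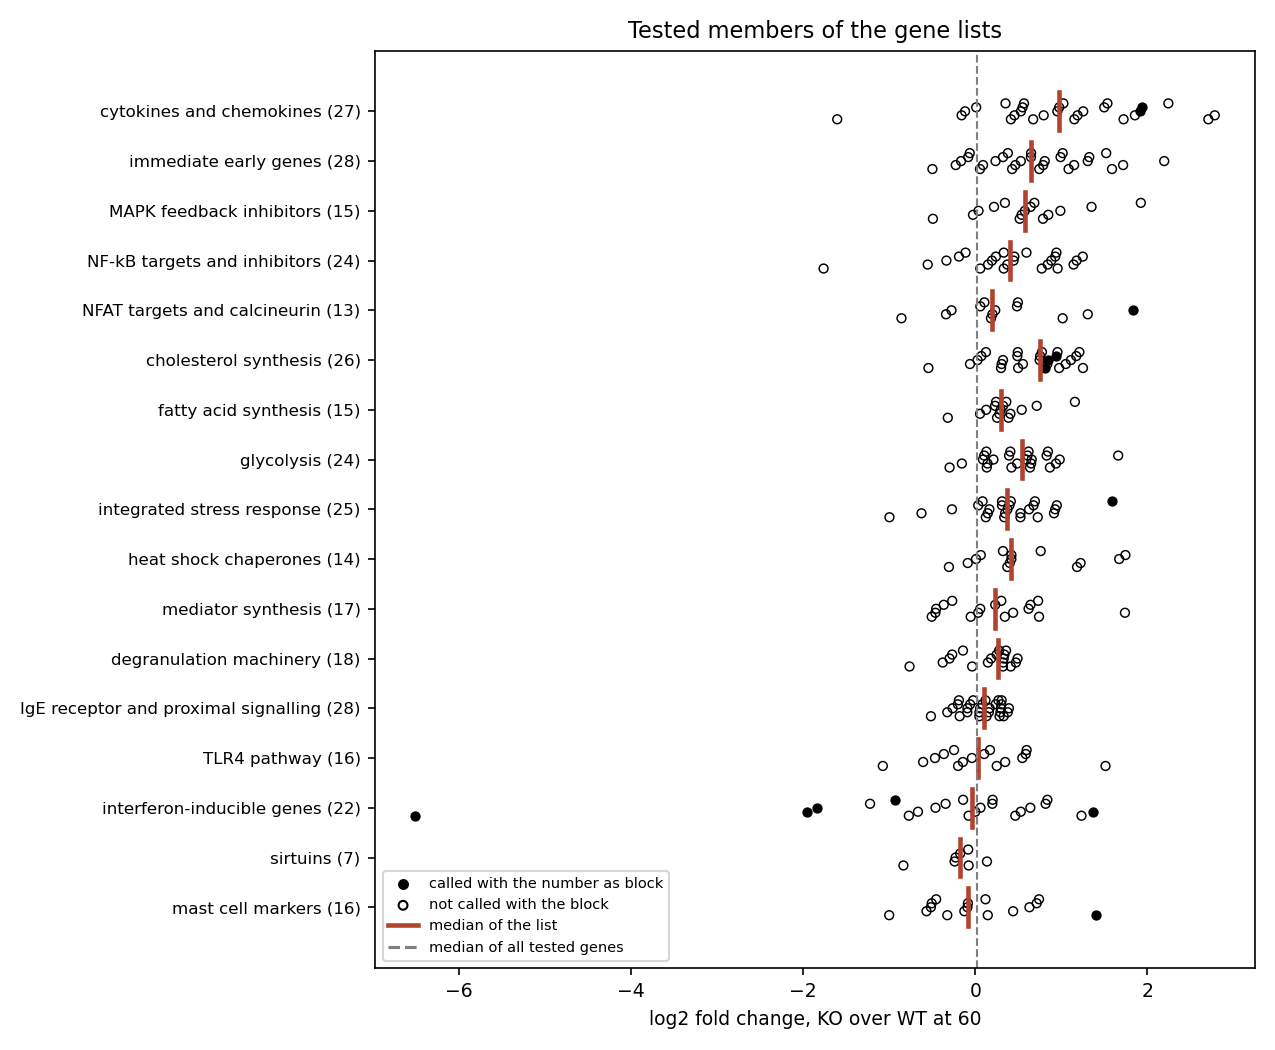
Log2 fold change of KO over WT at 60 for the tested members of 17 gene lists, with the number tested in brackets; filled points were called with the number as a block, red bars are list medians and the dashed line is the median of all tested genes. Markers of cells other than mast cells and the remaining lists are not drawn. Among the 17 lists the medians are highest for cytokines and chemokines (0.98) and for cholesterol synthesis (0.75), and near the dashed line for the TLR4 pathway and the interferon-inducible genes.

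Of the 26 genes of cholesterol synthesis and its control, all tested, 24 had a positive difference, against 8925 of all 17159, and the median was 0.75. KO was higher in 3 of 3 pairs for 19, against 24.7% of all tested genes. Fdft1, Insig1 and Stard4 were called with the block and none without it. Insig1, the sterol sensor that retains the SREBP escort protein, had 28.8, 26.1 and 29.8 CPM in KO and 15.1, 10.9 and 21.1 CPM in WT, with a difference of 0.85 ± 0.21 (adjusted p = 0.120 without and 0.0192 with the block). Stard4, a sterol transfer protein, had 39.2, 40.4 and 41.1 CPM in KO and 24.7, 15.5 and 22.5 CPM in WT (adjusted p = 0.0919 and 0.0256). Fdft1, the squalene synthase, which was picked out after its values were seen, had 18.7, 32.1 and 36.8 CPM in KO and 13.1, 15.3 and 21.7 CPM in WT (adjusted p = 0.322 and 0.0194). The excess over the difference at 0 had a median of 0.15 across the list, against 1.60 for the cytokine list, so in the cholesterol list a difference was already present at 0. Neither Insig1 nor Stard4 was called with the block without 4120 or without 414. Without the number 414 the median was 0.51, and 0 genes of the list were called in either fit.

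Glycolysis, which Sirt6 is known to restrain in other cells, had 22 of 24 tested genes positive and a median of 0.54, with no call in either fit. The median was 0.31 without WT 414, 0.18 without KO 6110 and 0.21 with the mitochondrial share as a covariate, where 17 were positive. For example, Hk2, a hexokinase, had 315, 120 and 145 CPM in KO and 164, 59.9 and 94.3 CPM in WT (adjusted p = 0.457). All 15 tested genes linked to HIF1A were positive, with a median of 0.50; over the other settings run the count positive went as low as 12, without KO 4120, and the median was 0.32 without KO 6110 and 0.90 without WT 6110. The integrated stress response list had 22 of 25 positive with a median of 0.37, against 16 of 25 and 0.17 without the number 414 and a median of 0.73 without WT 6110, and Chac1 was the member called with the block. No sirtuin gene was called in either fit. Sirt4, a mitochondrial sirtuin, had 5.95, 3.67 and 4.12 CPM in KO and 8.56, 10.1 and 5.95 CPM in WT (adjusted p = 0.395). Of 20 DNA repair genes 8 were positive, with a median of −0.13 and no call.

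Many of the calls at 60 were also made at 0 or 20. Of the 183 genes called with the block at 60, 175 had the same sign of difference at both 0 and 20, against 11494 of all 17159 tested genes. Of the 183, 109 were also called with the block at 0, 91 at 20 and 83 at both, where 208 (1.21%) and 119 (0.694%) of all genes were called; 66 were called at 60 alone. The levels share the leading numbers, so agreement across them is not independent. Among the 62 genes higher in KO and called only with the block, 32 were called at neither 0 nor 20. For the 75 lower genes called only with the block the count was 31.

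**Figure D3:**
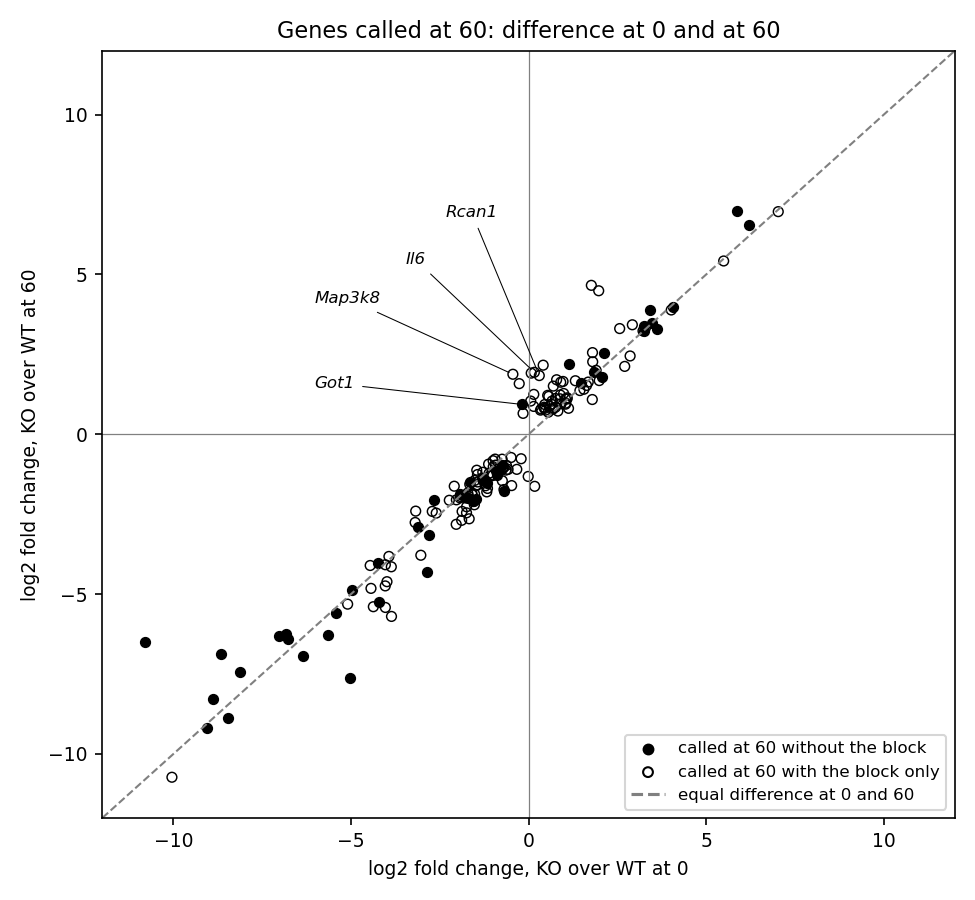
Log2 fold change of KO over WT at 0 (horizontal) and at 60 (vertical) for the 183 genes called at 60 with the number as a block; filled points were also called without it, and the dashed line marks equal differences. Most points follow the dashed line, Got1, Il6, Map3k8 and Rcan1 lie near 0 on the horizontal axis, and a gene with 0 counts in a group takes a fitted value that depends on the prior count.

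Add2, which encodes beta-adducin of the spectrin-actin skeleton, had 4.83, 4.28 and 8.07 CPM in KO and 149, 198 and 165 CPM in WT. The libraries were far apart, with a log2 difference of −4.88 ± 0.50 (edgeR adjusted p = 9.73e-05). Col6a3, a collagen VI chain, went the other way, with 235, 110 and 40.6 CPM in KO against 1.69, 1.17 and 1.21 CPM in WT (6.55 ± 0.80, adjusted p = 0.000513). Its KO libraries differed among themselves more than the WT libraries did. Styk1, a putative receptor kinase, had 5.92, 5.39 and 5.15 CPM in KO and 119, 313 and 195 CPM in WT (−5.25 ± 0.54, adjusted p = 9.86e-05). These genes differed alike at the other levels: at 0, Add2 averaged 3.49 CPM in KO against 112 CPM in WT, and Styk1 averaged 15 CPM in KO against 277 CPM in WT.

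Nectin1, an adhesion molecule whose locus overlaps another annotated gene, had 0.211, 0.734 and 0.756 CPM in KO and 28.7, 10.5 and 42 CPM in WT (−5.60 ± 0.60, edgeR adjusted p = 0.000139). Map9, a microtubule-associated protein, had 0 counts in the KO libraries and 173 in the WT libraries, which makes it at least 60.1-fold lower in KO against a floor of 3 counts over the group. Tescl had 1 count in KO and 150 in WT, and WT exceeded KO 156-fold with a 95% counting interval from 27.6 to 6217. Nxpe2, whose locus overlaps Nxpe4, had 412 counts in KO and 3 in WT, a ratio of 132 with an interval from 44.8 to 641; the intervals cover counting error only. Add2, Nectin1, Styk1, Gm42048 and Rpl34-ps1 kept their calls in all 9 fits without a library or a number, as did 5 pseudogenes.

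The remaining higher coding genes included Kcnh6, a potassium channel of the ERG family (3.97 ± 0.68), Hmgn1, a nucleosome-binding protein with many close copies in the genome (3.24 ± 0.52), Cpne5, a copine (2.53 ± 0.45), and Clba1, a clathrin-binding protein (1.79 ± 0.25). Tanc2, a scaffold protein, completed them with 37.3, 27.3 and 29.6 CPM in KO and 7.90, 9.43 and 13.5 CPM in WT (1.61 ± 0.28, edgeR adjusted p = 0.0137). Among the lower ones, Aoah, the lipase that inactivates LPS, had 2.84, 2.69 and 2.22 CPM in KO and 6.01, 5.88 and 5.19 CPM in WT (−1.14 ± 0.21, adjusted p = 0.0289); its call was lost in all 9 fits without a library or a number, where it kept its sign. Foxm1, a transcription factor of the cell cycle, had 5.56, 6.49 and 8.80 CPM in KO and 16.0, 24.4 and 20.2 CPM in WT (−1.54 ± 0.25, adjusted p = 0.00855). Ano6, a phospholipid scramblase, had 25.8, 26.7 and 34.4 CPM in KO and 61.5, 61.2 and 86.2 CPM in WT (−1.26 ± 0.21, adjusted p = 0.00977). Clec12b, an inhibitory lectin receptor whose locus overlaps other lectin genes, had 4 counts in KO and 472 in WT. For Stk38l, a kinase of the Hippo pathway, the gap was wider at 60, with 7, 3.86 and 3.83 CPM in KO and 21.9, 13.3 and 15.3 CPM in WT, than at 0, where the means were 3.16 and 5.08 CPM.

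**Figure D4:**
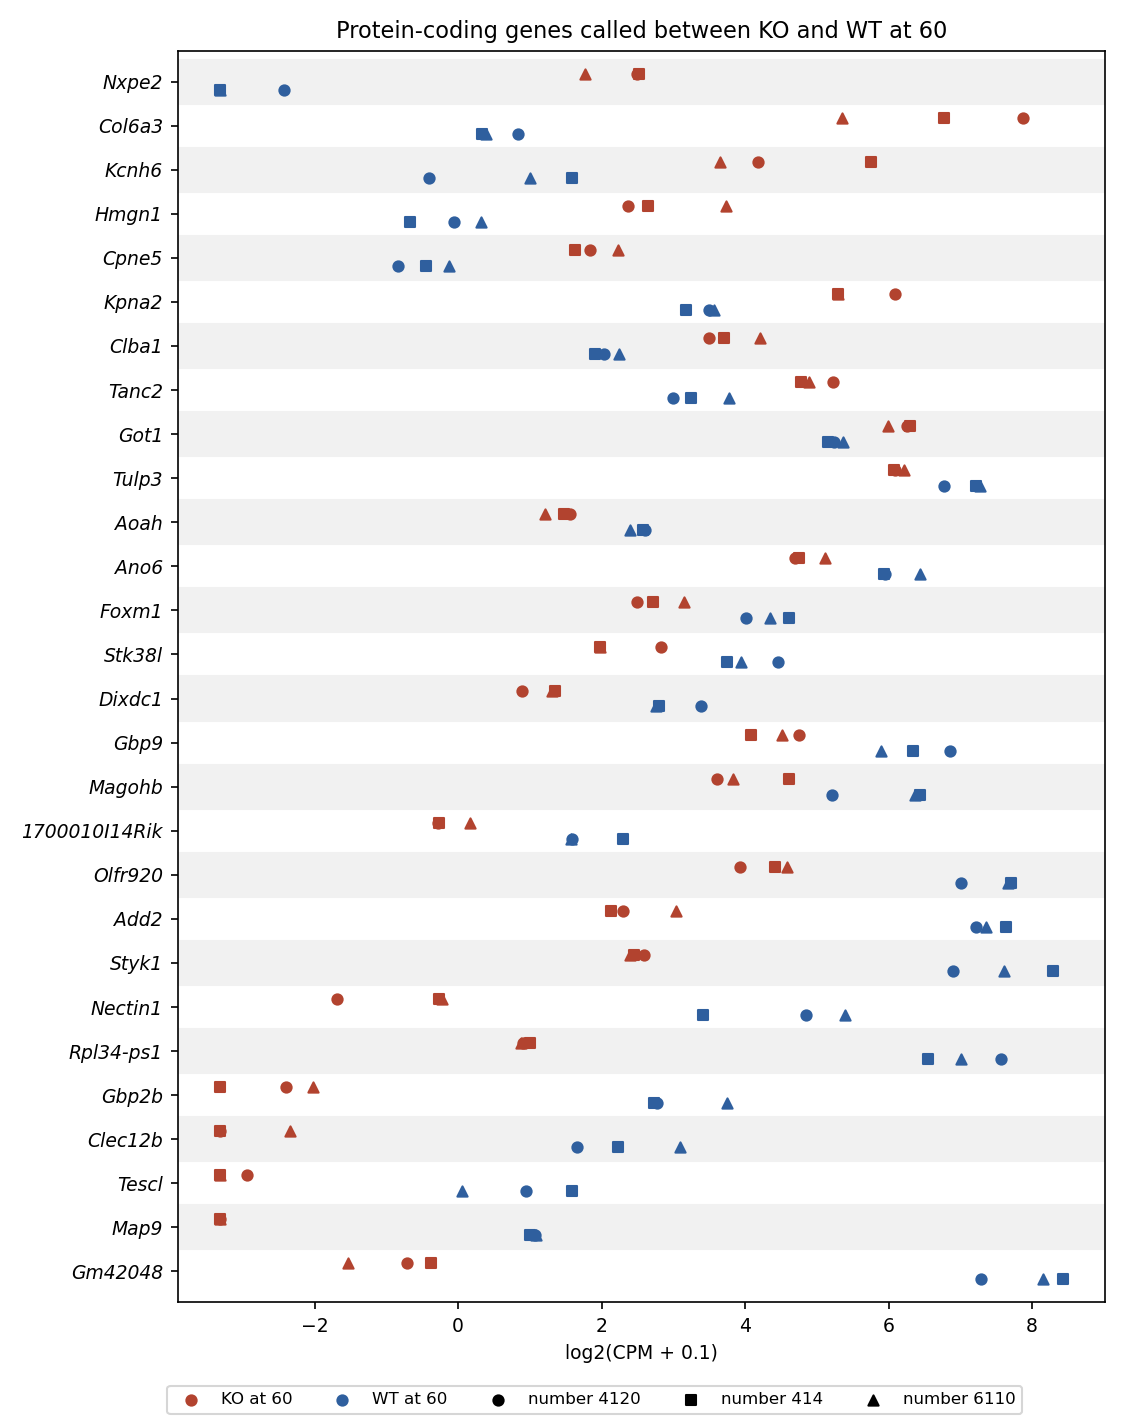
Expression at 60, as log2(CPM + 0.1), of the 28 protein-coding genes called between KO and WT that averaged 1 CPM or more in either group; each point is a library, KO is drawn above WT in each row and shapes give the leading numbers. The KO and WT points of every gene shown are separate.

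Of the 14 pseudogenes among the calls 9 were lower in KO and 5 higher, against 32 lower and 14 higher among all 46 calls. Rps3a3, a copy of a ribosomal protein gene, had 2.72, 3.43 and 2.54 CPM in KO and 209, 166 and 348 CPM in WT (−6.39 ± 0.44, edgeR adjusted p = 2.25e-06). Gm10154 had 0.211, 0.428 and 0.268 CPM in KO and 64.7, 33.3 and 51.0 CPM in WT. Gm5900, Gm4705 and Gm9522 followed the same direction. Reads of such copies can be shared with their parent genes, so their identity is uncertain.

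Called genes lay near one another in places. With starts chained within 5 Mb, 22 of the 46 calls fell into 8 stretches, and the genes of 6 stretches shared one direction. Of the 183 genes called with the block, 112 fell into 28 stretches, 9 of them with one direction. How often called genes would lie this near one another otherwise was not tested. Tulp3, Foxm1, Clec12b, Magohb and Styk1, all lower in KO, lie on chromosome 6 between 128321140 and 131353836 (GRCm38); 25 genes with starts in this stretch were tested, and their median difference was −0.11. Tanc2, Kcnh6 and Kpna2, all higher, lie on chromosome 11 between 105589460 and 106999525, where 29 genes were tested with a median of 0.09. Most tested genes within these stretches were thus not called.

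The guanylate-binding proteins are interferon-induced GTPases encoded in clusters on chromosomes 3 and 5, and their genes differed in opposite directions. On chromosome 3, Gbp2b had 0.0906, 0 and 0.146 CPM in KO and 6.73, 6.57 and 13.3 CPM in WT (edgeR adjusted p = 0.00329), whereas its neighbour Gbp2 had 16.4, 15.3 and 31.1 CPM in KO and 5.18, 9.64 and 9.59 CPM in WT (adjusted p = 0.259 without and 0.0290 with the block). Gbp5, Gbp7 and Gbp3 were called in neither fit. On chromosome 5, Gbp9 had 26.8, 16.9 and 22.7 CPM in KO and 116, 81.2 and 59.5 CPM in WT (adjusted p = 0.0275). Gbp4 had 58.6, 27.8 and 38 CPM in KO and 256, 84.1 and 104 CPM in WT (adjusted p = 0.215 without and 0.000745 with the block). Gbp10, Gbp6 and Gbp11 were likewise lower and called with the block only; Gbp6 and Gbp11 were picked out after their values were seen. These genes are close copies, so reads may be assigned among them. With the block, Gbp4 kept its call without each number in turn, Gbp10 lost it without 4120 and without 414, and Gbp2 lost it without any of the 3. With the mitochondrial share beside the block Gbp2 and Gbp10 were at an adjusted p of 0.0544. Of the 22 tested interferon-inducible genes 11 were positive, with a median of −0.04.

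**Figure D5:**
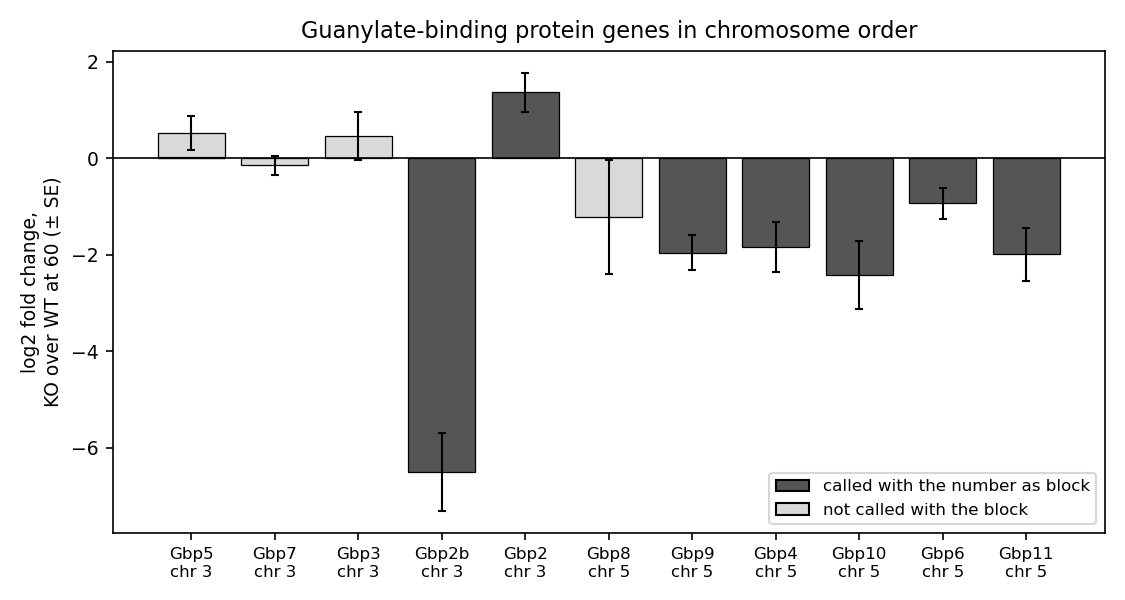
Log2 fold change of KO over WT at 60 with its standard error for the 11 tested guanylate-binding protein genes, in chromosome order; dark bars were called with the number as a block. Gbp2 is higher in KO while Gbp2b and the chromosome 5 genes Gbp9, Gbp4, Gbp10, Gbp6 and Gbp11 are lower.

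Further genes called with the block differed in both directions. Cadm1, an adhesion molecule of mast cells, had 88.3, 115 and 156 CPM in KO and 9.13, 3.97 and 22.1 CPM in WT (edgeR adjusted p = 0.0863 without and 0.00135 with the block). F13a1, a coagulation factor subunit, had 19.5, 9.12 and 8.10 CPM in KO and 75.7, 31.6 and 38.8 CPM in WT (adjusted p = 0.186 and 1.93e-06). Aim2, a sensor of cytosolic DNA, had 235, 225 and 134 CPM in KO and 414, 763 and 486 CPM in WT (adjusted p = 0.11 and 0.0355). Ctsg, the granule protease cathepsin G, had 45.2, 18.7 and 2.34 CPM in KO and 13.1, 6.46 and 1.09 CPM in WT, higher in each pair with overlapping groups (adjusted p = 0.651 and 0.0192). Lyz2, the gene whose promoter drives Cre, had 0.181, 0 and 0 CPM in KO and 3.01, 1.01 and 1.88 CPM in WT. The exact two-sided permutation p for Lyz2 was 0.1, the smallest possible, and its adjusted p in edgeR was 0.0863 without and 0.0162 with the block. Tpsab1, a mast cell tryptase with close copies that the annotation lists as a transcribed pseudogene, had 1209, 2939 and 3420 CPM in KO and 273, 1206 and 1372 CPM in WT (adjusted p = 0.526 and 0.0179). Tpsb2, another tryptase gene, had means of 1641 CPM in KO and 3280 CPM in WT, though KO was higher in the pair numbered 4120. Whether reads were shared between these copies was not tested. Of the 16 mast cell markers 7 were positive, with a median of −0.09. With the block, F13a1 kept its call without each number in turn, Cadm1 lost it without 4120 (adjusted p = 0.0848), Lyz2 kept it only without 414, and Aim2, Ctsg and Tpsab1 lost it in all 3 cases. Aim2 also lost it with the mitochondrial share beside the block (adjusted p = 0.0610).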

How the data were processed

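Total RNA of 18 BMMC libraries was made into mRNA libraries with a TruSeq kit, per the labels' protocols. Per the submitters' processing notes the tools were bcl2fastq 2.20.0, FastQC 0.11.7, HISAT2 2.1.0 and StringTie 2.1.3b, with mm10. The strand is not given in the sources used here. The authors deposited a read count, an FPKM and a TPM of 45777 genes per library, per the file headers; the counts are not normalized. Counts were tested, TPM served as an alternative, and FPKM were not used. Positions and biotypes came from RefSeq on GRCm38.p6, which matched 99.8% of the gene IDs.

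Genes were kept by filterByExpr, scaled with TMM and fitted to all 18 libraries with 1 mean per group in edgeR 4.0.16 (R 4.3.3, and the data.table package in version 1.17.8); p-values were adjusted over all 17159 genes by Benjamini-Hochberg and called under 0.05. SE are of the log2 fold change, and CPM use TMM-scaled totals. KO and WT libraries of one number at 60 correlated at 0.43 to 0.53 after removal of group means. Correlations between different numbers were not computed, and whether a number stands for one culture or litter is not stated. The blocked fit adds the number. Alternatives used DESeq2 1.42.0, limma 3.58.1, other scalings, filters and thresholds, a mitochondrial covariate (37 genes), and libraries left out. A count of 3 is 0.140 CPM in the smallest library at 60. The method was tested on simulated data. Figures used matplotlib 3.10.9.

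Genes, lists and the naming rule were chosen with earlier results of these data known. Named genes are called coding genes of at least 1 CPM with the 6 largest other calls, the 10 largest rises and falls called with the block only at 20 CPM or more, up to 4 members per list by smallest p, the smallest p of the tests between levels, and Sirt6 and Lyz2; not all are printed.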

Additional observations from a re-analysis of the deposited data

How the results depend on the processing

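The comparison KO against WT at 60 called 46 genes, which became 28 at an adjusted p under 0.01 and 90 under 0.1. It was 183 with the replicate block, 226 in DESeq2, 922 in DESeq2 with the block, 19 in the 6 libraries at 60 alone, 138 there with the block, 224 with the mitochondrial share and the block, and 29 among protein-coding genes only, where fewer genes were tested. The split of 14 higher and 32 lower calls was 23 and 26 in limma-voom. With libraries or numbers left out the count ran from 15 without the number 414 to 54 without 6110, and with the block and a number left out from 41 (without 4120) to 104 (without 6110). Of the 46 calls, 10 held in all 9 such fits and 1, Aoah, in none. The tests between levels gave 0 calls in every edgeR and limma setting run; DESeq2 gave 2 for 60 against 0. The mitochondrial difference ran from −9.41 to −5.82 percentage points, and with paired sign flips its exact p was 0.25. Sign changes were counted for only part of the named genes, mostly those with values printed above. None of these changed sign in the settings where they were tested. Left out, among others, were Fdft1 and the markers of other cell types except Ctsg and Lyz2. The guanylate-binding genes other than Gbp2, Gbp2b, Gbp4, Gbp9 and Gbp10 were left out as well. The medians of the cytokine and cholesterol lists ran from 0.61 to 1.61 and from 0.51 to 1.04 over 27 settings. Library size alone gave 34 calls. Causes of these changes were not tested. Depth limits genes near the floor of 3 counts, and groups of 3 limit changes near 2-fold.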
